A study of Mus musculus with 12 samples.

Results

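The derlins, the EDEMs and the HRD1 complex are the part of ER-associated degradation (ERAD) that takes misfolded glycoproteins from the lumen of the endoplasmic reticulum (ER) to the ubiquitin ligase in its membrane. The 10 genes Derl1, Derl2, Derl3, Edem1, Edem2, Edem3, Herpud1, Sel1l, Syvn1 and Os9 were followed here, out of 18193 genes measured. They were taken by symbol, through 24 of the 45037 probe sets tested, and each gene is given by its brightest probe set, the one with the highest mean of the 12 arrays. Liver homogenates of 12 mice of variable age and gender were hybridised to Affymetrix arrays, 1 array per animal, in 4 groups of 3 animals. Wild-type mice (Atf6a +/+) and Atf6a-/- mice were injected intraperitoneally with 150 mM dextrose as vehicle or with tunicamycin (TM) at 1 mg/kg in the same dextrose. Livers were taken 34 h later. The source field of the labels gives 8 h, while titles and protocol give 34 h, the time taken here. No animal's own age or sex is given. The Atf6a-/- genotype is that of the whole animal, so that a loss in hepatocytes and a loss in other liver cells cannot be told apart. All levels are log2 values from RMA. A gene is written as risen or fallen where limma gave an adjusted p under 0.05, over all probe sets of the comparison, and a change over 1.5-fold.

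TM blocks N-linked glycosylation, and unfolded proteins then gather in the ER and set off the unfolded protein response, in which ATF6α, XBP1 and ATF4 are the main transcription factors. ATF6α is held in the ER membrane and is cut in the Golgi to release its active part. In ERAD, EDEM proteins trim mannose from the sugar chains of proteins that fail to fold, and the lectin OS-9 reads the trimmed chain. SEL1L carries the client to the ligase HRD1, encoded by Syvn1, while derlins help it across the membrane and HERP, encoded by Herpud1, holds parts of the complex together.

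Atf6, the targeted gene, was checked first. Its brightest probe set stood at a mean of 8.48 in wild-type and 6.78 in Atf6a-/- livers after vehicle, a difference of -1.71 ± 0.15 (log2, SE, limma adjusted p = 0.00611), and all 3 Atf6a-/- animals were below all wild-type animals. After vehicle the other 2 probe sets gave -0.70 and -0.55 and were not called (limma adjusted p = 0.770 and 1.00). After TM the brightest stood at 9.51 and 9.55, and the groups overlapped, while the dimmest was higher in Atf6a-/- livers by 1.43 (limma adjusted p = 3e-05). Where its 3 probe sets lie relative to the deleted part of the gene is not given in the sources used here, so that the levels after TM check nothing. Of the arrays, wild-type TM animal 2 stood highest of its group in 7 of the 10 genes. Xist was high (12.2 to 12.4) in animal 1 of 3 groups and in no wild-type TM animal, so that comparisons with wild-type TM livers are unbalanced in it. Results with Xist as covariate are given below. The mean of 18 hybridisation spike-in probe sets ran from 9.14 to 9.55 in vehicle livers, 8.85 to 9.18 in wild-type TM livers and 8.78 to 8.82 in Atf6a-/- TM livers. Hepatocyte markers were bright, and 7 of 10 fell in Atf6a-/- livers with TM, their summed log2 level going from 17.11 to 17.35 after vehicle to 16.19 to 16.42. In wild-type livers 2 of 10 fell, from 17.24 to 17.33 after vehicle to 16.76 to 17.13. Of 6 neutrophil markers S100a8 rose in both genotypes (2.31 and 4.67, log2) and S100a9 in Atf6a-/- livers (3.73), and the other 4 were not called. Their summed log2 level was 7.74 to 8.07 after vehicle, 8.49 to 9.30 in wild-type TM and 9.35 to 11.35 in Atf6a-/- TM livers. Of 10 Kupffer cell and macrophage markers 4 fell and 1 rose (Marco) in wild-type livers, and 6 fell and 2 rose in Atf6a-/- livers (Marco and Cd68, the latter by 3.07). Their summed level was 12.14 to 12.75 after vehicle, 11.40 to 11.82 in wild-type TM and 11.65 to 11.99 in Atf6a-/- TM livers. Of 8 endothelial markers none was called in wild-type livers and 3 fell in Atf6a-/- livers, their summed level going from 11.11 to 11.64 after vehicle to 10.80 to 10.95 in wild-type TM and 10.53 to 10.92 in Atf6a-/- TM livers. The part of these shifts in the results below was not tested, and in homogenates fewer cells of a type cannot be told apart from less RNA per cell.

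The stretches upstream of 5 of the genes are shown because ATF6α is known to bind the ER stress response element (ERSE, which is CCAAT, 9 bases of any kind and CCACG) and its variant ERSE-II (ATTGG, 1 base of any kind and CCACG). RefSeq promoter windows (GRCm38.p6, 250 bases before to 50 after a start) were given for 9 of the 10 genes in 10 windows, with none for Derl1. After TM Derl3 and Herpud1 were called lower in Atf6a-/- than in wild-type livers and Edem2 was called higher. Os9 lay lower without overlap but short of the fold threshold, and the genotypes overlapped in Syvn1. Each sequence is the 200 bases just before the start, and capitals mark ERSE, ERSE-II and the shared end CCACG on either strand.
Derl3, chr10:75893198-75893397, + strand: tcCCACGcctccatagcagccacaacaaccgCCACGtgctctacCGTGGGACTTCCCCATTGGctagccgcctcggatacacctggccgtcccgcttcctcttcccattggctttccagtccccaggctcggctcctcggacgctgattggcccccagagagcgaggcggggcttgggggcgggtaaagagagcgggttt
Herpud1, chr8:94386229-94386428, + strand: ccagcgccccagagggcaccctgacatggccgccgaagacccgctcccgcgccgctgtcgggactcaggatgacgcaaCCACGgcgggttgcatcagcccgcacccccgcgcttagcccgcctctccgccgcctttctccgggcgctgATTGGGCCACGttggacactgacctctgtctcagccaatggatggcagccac
Syvn1, chr19:6046376-6046575, + strand: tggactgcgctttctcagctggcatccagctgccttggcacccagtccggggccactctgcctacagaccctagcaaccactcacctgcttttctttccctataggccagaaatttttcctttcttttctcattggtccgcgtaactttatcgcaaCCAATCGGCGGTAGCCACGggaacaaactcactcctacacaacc
Os9, chr10:127121161-127121360, - strand: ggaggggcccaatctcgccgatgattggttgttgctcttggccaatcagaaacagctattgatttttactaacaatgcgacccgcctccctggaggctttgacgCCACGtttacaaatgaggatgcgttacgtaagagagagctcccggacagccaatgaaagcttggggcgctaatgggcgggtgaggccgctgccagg
Edem2, chr2:155729476-155729675, - strand: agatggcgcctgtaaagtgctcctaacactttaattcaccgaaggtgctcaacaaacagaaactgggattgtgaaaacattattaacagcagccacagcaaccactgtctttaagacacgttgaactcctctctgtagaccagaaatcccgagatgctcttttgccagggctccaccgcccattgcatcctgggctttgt
ERSE was found in the windows of Derl3, at -156 to -138 from the start on the opposite strand, and of Syvn1, at -44 to -26. It was in 39 of all 32851 windows (0.119%). ERSE-II was found in that of Herpud1 alone, at -52 to -42, and in 12 of all windows (0.0365%). The end CCACG, which both hold, was in 9 of the 10 windows and in 32.8% of all. In Edem2 it lay only past the start. The UPRE (TGACGTGG, 0.676% of all windows) and the amino acid response element (TGATGNAAT, 0.965%) were, in exactly these letters, in no window of these genes. Variants of them were not searched in any window. The Herpud1 stretch gttgcatca, read on the opposite strand, departs from the latter in its last base alone. The printed Herpud1 sequence also ends in ccaatggatggcagccac, which holds ERSE but for its last base. Neither stretch comes from a search over the windows, and the share of all windows with such near matches was not counted. These are matches of letters, and no binding was measured.

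TM raised most of the genes in wild-type livers. Of the 10 genes, 9 rose and none fell, where 3.45% of all genes rose and 3.86% fell, and the median difference was 1.23 (log2) against -0.02 over all genes. Scaling to the spike-ins added Herpud1, and the methods' t-test after Benjamini-Hochberg adjustment called none of the 10. The study names no such adjustment for its array calls. Left unadjusted, the same t-test lost Edem3 alone of the 9. In all 10 the 3 TM animals were above the 3 vehicle animals, as in 11.8% of all genes.

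**Figure D1:**
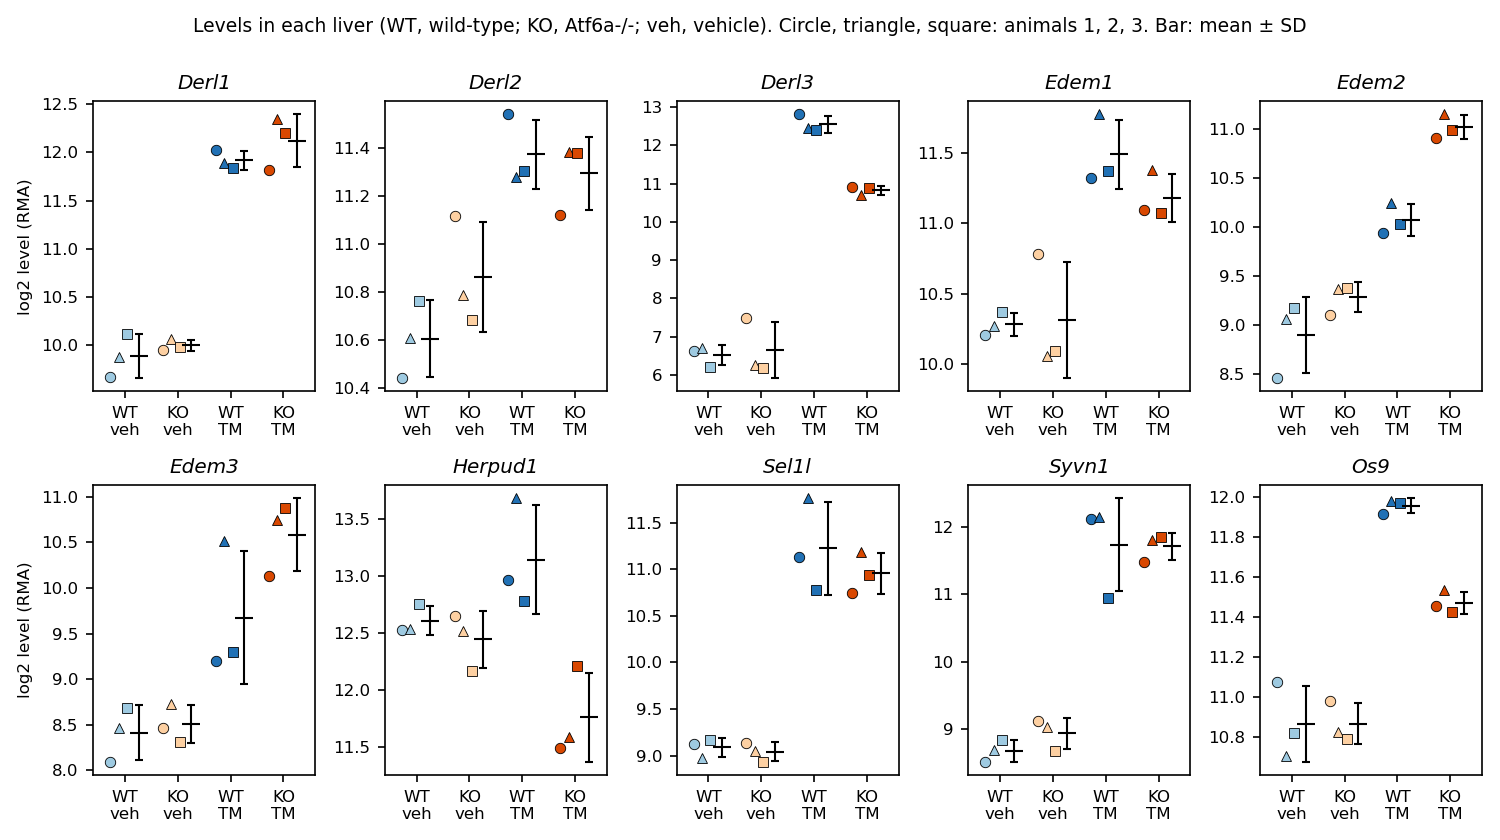
Log2 level (RMA) of each gene in each of the 12 livers, by group, with the mean and SD of 3 animals (WT, wild-type; KO, Atf6a-/-; veh, vehicle; the vertical axes differ between panels). Derl3, Herpud1 and Os9 lay lower in every Atf6a-/- than in every wild-type TM animal, Edem2 lay higher, and the other 6 genes overlapped.

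Among the derlins, which are multi-pass proteins of the ER membrane, Derl3 moved most. Its level was 6.62, 6.70 and 6.21 in the wild-type vehicle animals and 12.80, 12.45 and 12.40 in the wild-type TM animals. The Atf6a-/- animals had 7.49, 6.26 and 6.19 after vehicle and 10.90, 10.69 and 10.90 after TM. The TM animals of both genotypes were far above all vehicle animals, and the genotypes were apart after TM, with 1 Atf6a-/- vehicle animal above the other vehicle animals. The rise was 65.7-fold in wild-type livers (6.04 ± 0.28, log2, SE, limma adjusted p = 1.2e-06), which was the highest rise of all 18193 genes in that comparison, and 18.2-fold in Atf6a-/- livers (4.18 ± 0.28, limma adjusted p = 5.8e-07). After TM, Derl3 was 3.30-fold lower in Atf6a-/- livers (-1.72 ± 0.28, limma adjusted p = 0.00103). The difference of the 2 responses was -1.85 ± 0.40 (limma adjusted p = 0.0115). Derl3 is known to be abundant in secretory cells such as plasma cells. Of 7 plasma cell markers none rose in either genotype, and 5 (Jchain, Tnfrsf17, Prdm1, Irf4 and Pou2af1) had means under 4.71, the highest array median, in all groups. The summed log2 level of the 7 lay between 10.55 and 11.71 after vehicle, between 10.22 and 10.92 in wild-type TM and between 9.41 and 9.73 in Atf6a-/- TM livers, where Sdc1 fell. With these 5 so dim, the sum rests mainly on the other markers, Sdc1 among them.

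Derl1, which helps to pass proteins out of the ER, was at 9.67, 9.88 and 10.12 in wild-type vehicle livers and at 12.03, 11.89 and 11.83 with TM. In Atf6a-/- animals it was at 9.95, 10.06 and 9.99 after vehicle and at 11.82, 12.34 and 12.20 after TM. It rose in both genotypes, by 2.03 ± 0.14 (limma adjusted p = 1.6e-05) and 2.12 ± 0.14 (limma adjusted p = 5.7e-07), and the genotypes overlapped after TM. The 95% interval of their difference after TM ran from -0.11 to 0.52 for this probe set (0.21), and scaling the arrays to Btf3 and Ppia, with which the study normalised its PCR, turned it to -0.22. Its other probe sets did not all give the same call. A second gave 0.19 (log2), while 2 of the _s_at type, whose probes can match several transcripts, gave 0.67 and 0.91, both called higher in Atf6a-/- livers (limma adjusted p = 0.00638 and 0.0140).

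Derl2, the third derlin, went from 10.44, 10.61 and 10.76 to 11.54, 11.28 and 11.30 in wild-type livers, a rise of 0.77 ± 0.14 (limma adjusted p = 0.00510). Atf6a-/- livers had 11.12, 10.78 and 10.68 after vehicle and 11.12, 11.38 and 11.38 after TM. The lowest TM animal and the highest vehicle animal were level there. That difference was 0.43 ± 0.14 (limma adjusted p = 0.0334), which is under 1.5-fold. The test of the difference between the 2 responses did not pass (-0.34, limma adjusted p = 0.374), with a 95% interval from -0.76 to 0.09. It passed with scaling to Btf3 and Ppia (-0.78, limma adjusted p = 0.0167, within 0.0167 to 0.714 over all alternatives), where the Atf6a-/- response turned to -0.083, while scaling to the spike-ins gave an Atf6a-/- response of 0.91 that was called (limma adjusted p = 8.6e-05, within 8.6e-05 to 0.589 over all alternatives).

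Of the EDEMs, Edem2 was called different between the genotypes after TM. Edem1, long known as a target of the XBP1 branch, was at 10.20, 10.27 and 10.37 in wild-type vehicle livers and at 11.33, 11.77 and 11.37 with TM. The Atf6a-/- animals were at 10.78, 10.06 and 10.09 after vehicle and at 11.09, 11.38 and 11.07 after TM. It rose by 1.21 ± 0.19 (limma adjusted p = 0.00216) in wild-type and by 0.87 ± 0.19 (limma adjusted p = 0.00357) in Atf6a-/- livers. The genotypes overlapped after TM, at a difference of -0.31 with a 95% interval from -0.72 to 0.10, and the second probe set gave -0.33. With scaling to Btf3 and Ppia it was called lower in Atf6a-/- livers (-0.74, limma adjusted p = 0.00775, within 0.00775 to 0.738 over all alternatives), and its Atf6a-/- rise was not called (0.35).

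Edem2, which starts mannose trimming, went the other way. Its level was 8.46, 9.06 and 9.17 in wild-type vehicle livers and 9.93, 10.24 and 10.03 with TM. It was 9.10, 9.36 and 9.38 in Atf6a-/- vehicle livers and 10.90, 11.14 and 10.99 in Atf6a-/- TM livers. Every Atf6a-/- TM animal was above every wild-type TM animal. The rise was 1.17 ± 0.17 (limma adjusted p = 0.00142) in wild-type and 1.73 ± 0.17 (limma adjusted p = 9.8e-06) in Atf6a-/- livers. After TM, Edem2 was 1.93-fold higher in Atf6a-/- livers (0.95 ± 0.17, limma adjusted p = 0.00187). The difference of the responses was 0.56 and did not pass (limma adjusted p = 0.199, or 0.0188 without wild-type vehicle animal 1, within 0.0188 to 0.721 over all alternatives), with a vehicle difference of 0.39 in the same direction. Its second probe set, at a mean of 3.38, was under the array median and changed in no comparison, and the mean over both probe sets gave 0.55 for the wild-type response and 0.46 for the difference after TM, both under 1.5-fold. Scaling to Btf3 and Ppia also took the difference after TM under it (0.52).

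Edem3 was at 8.09, 8.46 and 8.68 in wild-type vehicle livers and at 9.20, 10.51 and 9.30 with TM. Atf6a-/- livers were at 8.47, 8.73 and 8.31 after vehicle and at 10.13, 10.74 and 10.88 after TM. Wild-type TM animal 2 lay among the Atf6a-/- TM animals, and the other 2 wild-type animals were below them. Edem3 rose by 1.26 ± 0.31 (limma adjusted p = 0.0332) in wild-type and by 2.08 ± 0.31 (limma adjusted p = 0.000278) in Atf6a-/- livers. The wild-type call was lost without wild-type TM animal 2 (0.84, limma adjusted p = 0.0584), and also without any 1 of the 3 wild-type vehicle animals (limma adjusted p = 0.116, 0.0871 and 0.0575), over a range from 0.00355 to 0.351 for all alternatives, and with the mean of both probe sets (0.78, limma adjusted p = 0.0574). After TM the genotypes differed by 0.91 ± 0.31, which did not pass (limma adjusted p = 0.0669). Without wild-type TM animal 2 it was 1.33 (limma adjusted p = 0.00113), and without Atf6a-/- TM animal 1 it was 1.14 (limma adjusted p = 0.0408), within 0.00113 to 0.376 over all alternatives. The second, dimmer probe set was higher in Atf6a-/- TM livers by 0.87 (limma adjusted p = 0.0310).

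Sel1l and Syvn1, the core of the ligase complex, rose in both genotypes, and neither was called different between the genotypes on the values as deposited. Syvn1, the ligase itself, was at 8.52, 8.69 and 8.84 in wild-type vehicle livers and at 12.11, 12.14 and 10.94 with TM. The Atf6a-/- animals lay at 9.12, 9.03 and 8.68 after vehicle and at 11.48, 11.80 and 11.84 after TM. Wild-type TM animal 3 lay below all other TM animals, and all TM animals were above all vehicle animals. Syvn1 rose 8.29-fold (3.05 ± 0.27, limma adjusted p = 5.7e-05) in wild-type and 6.79-fold (2.76 ± 0.27, limma adjusted p = 8.7e-06) in Atf6a-/- livers. After TM the genotypes differed by -0.03, with a 95% interval from -0.61 to 0.56 at 3 animals per group, so that a difference of either sign within it remains possible. The sign of that difference turned without wild-type TM animal 1 or 2 or Atf6a-/- TM animal 1.

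Sel1l, the client adaptor and stabiliser of HRD1, was at 9.12, 8.98 and 9.17 in wild-type vehicle livers and at 11.13, 11.76 and 10.78 with TM. Atf6a-/- livers lay at 9.14, 9.05 and 8.93 after vehicle and at 10.75, 11.18 and 10.94 after TM. The vehicle animals lay within a narrow range and the TM animals of both genotypes overlapped. Sel1l rose by 2.13 ± 0.20 (limma adjusted p = 9.6e-05) in wild-type and by 1.91 ± 0.20 (limma adjusted p = 1.7e-05) in Atf6a-/- livers. All 5 of its probe sets rose in both genotypes. After TM all 5 were lower in Atf6a-/- livers, by -0.27 to -0.47 (log2), and none passed both thresholds. With scaling to Btf3 and Ppia the brightest was called lower (-0.70, limma adjusted p = 0.0124, within 0.0124 to 1.00 over all alternatives).

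Os9, the lectin that reads trimmed glycans, was at 11.08, 10.71 and 10.82 in wild-type vehicle livers and at 11.91, 11.98 and 11.97 with TM. It was at 10.98, 10.83 and 10.79 in Atf6a-/- vehicle livers and at 11.45, 11.53 and 11.43 in Atf6a-/- TM livers. The groups did not overlap after TM. Os9 rose 2.12-fold (1.09 ± 0.10, limma adjusted p = 0.000101) in wild-type and 1.52-fold (0.60 ± 0.10, limma adjusted p = 0.000718) in Atf6a-/- livers. The second call lies at the edge of the fold threshold and fell under it without Atf6a-/- vehicle animal 2 or 3 or Atf6a-/- TM animal 2 (0.57 to 0.58), under cyclic loess (0.48) and with scaling to Btf3 and Ppia (0.09). After TM Os9 was lower in Atf6a-/- livers by 0.48 on the log2 scale, or 1.40-fold (SE 0.10, limma adjusted p = 0.00565), which is short of 1.5-fold. The second probe set was lower by 0.59 on that scale and was called (limma adjusted p = 0.00505). The responses differed by -0.48 in the first (limma adjusted p = 0.0581) and by -0.66 in the second (limma adjusted p = 0.0316).

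**Figure D2:**
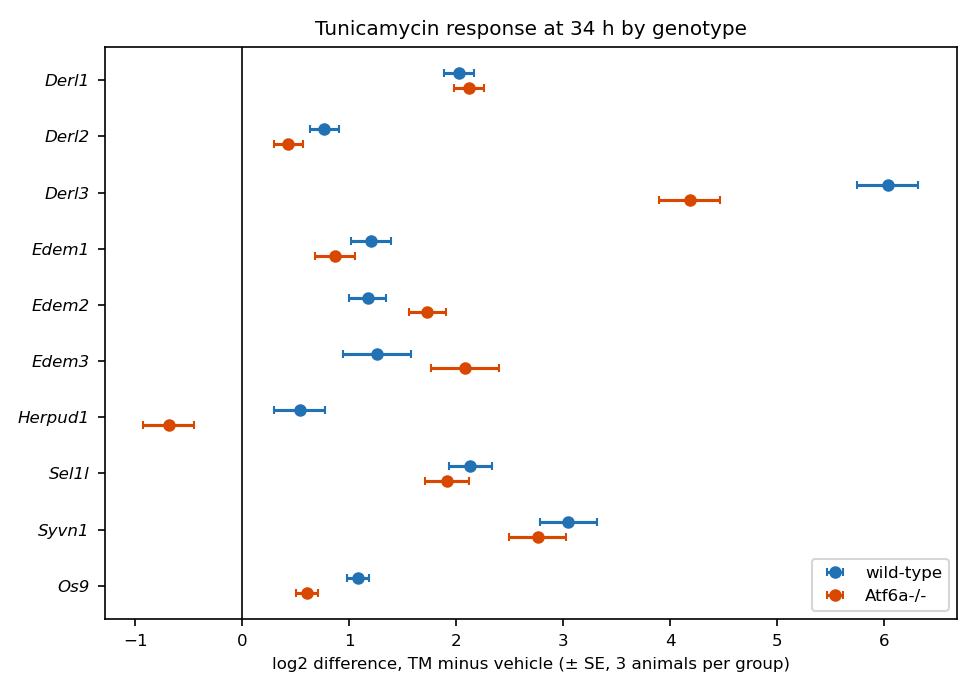
TM response of each gene (log2 difference of TM and vehicle means, with SE from limma, 3 animals per group) in wild-type and Atf6a-/- livers. The response of Derl3 was 6.04 in wild-type livers against 4.18 without ATF6α, and that of Herpud1 lay on opposite sides of 0.

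Herpud1 stood apart from the other genes. It was at 12.53, 12.54 and 12.75 in wild-type vehicle livers and at 12.97, 13.68 and 12.78 with TM. The Atf6a-/- animals were at 12.65, 12.52 and 12.17 after vehicle and at 11.49, 11.59 and 12.21 after TM. In wild-type livers the lowest TM animal (12.78) was just above the highest vehicle animal (12.75). In Atf6a-/- livers 2 TM animals were below all vehicle animals and the third was level with the lowest of them. The wild-type response of 0.54 ± 0.24 did not pass (limma adjusted p = 0.258), but did with scaling to the spike-ins (0.89, limma adjusted p = 0.0264, within 0.0264 to 0.626 over all alternatives). The Atf6a-/- response of -0.68 ± 0.24 did not pass either (limma adjusted p = 0.0517), while the second probe set fell (-0.73, limma adjusted p = 0.0348). After TM Herpud1 was 2.61-fold lower in Atf6a-/- livers (-1.38 ± 0.24, limma adjusted p = 0.00139), and the second probe set gave -1.43. That call was lost with the methods' t-test after Benjamini-Hochberg adjustment (adjusted p = 0.131, within 5.4e-06 to 0.131 over all alternatives) and held in the other alternatives run. The difference of the responses was -1.22 ± 0.34 (limma adjusted p = 0.0391) and -1.31 for the second probe set (limma adjusted p = 0.0257). The interaction call was lost without any 1 of 7 animals, namely any wild-type vehicle animal, Atf6a-/- vehicle animal 1 or 2, or Atf6a-/- TM animal 1 or 2 (-1.09 to -1.29, limma adjusted p = 0.0606 to 0.0904, within 0.00085 to 0.0904 over all alternatives). It was also lost with Xist as covariate, with a replicate block and with scaling to the spike-ins (limma adjusted p = 0.0562 to 0.0660). The Atf6a-/- fall was called in 11 of 29 alternatives. Among these were leaving out Atf6a-/- vehicle animal 3, Atf6a-/- TM animal 3 or wild-type TM animal 2 or 3 (limma adjusted p = 0.0137 to 0.0438, within 0.000159 to 0.450 over all alternatives). Cyclic loess, scaling to Btf3 and Ppia, both filters on the level and the mean of both probe sets also gave the call. So did limma with trend and robust prior and a fit on the compared groups alone. Of the genes with a promoter window, ERSE-II was found in that of Herpud1 alone. ERSE was found in Derl3, which was lower in Atf6a-/- livers after TM, and in Syvn1, whose genotypes overlapped. No binding was measured, and a link between motif and response was not tested.

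Counted over the comparisons, 8 of the 10 genes rose and none fell in Atf6a-/- livers, where 15.2% of all genes rose and 12.8% fell, with a median of 1.82 against -0.01 over all genes. With cyclic loess 7 rose and 1 fell, and with scaling to Btf3 and Ppia 6 rose and 1 fell. In 9 of the 10 the TM animals were above the vehicle animals, Derl2 by less than the second decimal, as in 24.1% of all genes. Between the genotypes after TM, 2 of the 10 were lower in Atf6a-/- livers (Derl3 and Herpud1) and 1 was higher (Edem2), against 8.45% lower and 11.3% higher over all genes. The share that was higher was near that of all genes. Scaling to Btf3 and Ppia, which lowers every such difference by the same amount, gave 5 lower (Derl3, Herpud1, Edem1, Os9 and Sel1l) and 0 higher, and scaling to the spike-ins gave 2 and 2. The groups did not overlap in 3 genes that were lower and 1 that was higher, against 16.2% and 19.5% of all genes, the share of higher genes being under that of all genes. After vehicle none of the 10 differed by limma, with differences from -0.16 to 0.39 (limma adjusted p = 1.00), and 1 of all genes did (0.0055%), Atf6. At an unadjusted p under 0.05 and with no limit on the fold, limma gave 1 of the 10, Edem2. No vehicle difference reached 1.5-fold, so that the methods' t-test with that limit could call none. The responses differed in 2 of the 10 (Derl3 and Herpud1), both in the direction of a lower response in Atf6a-/- livers, against 6.69% of all genes in that direction and 7.56% in the other.

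**Figure D3:**
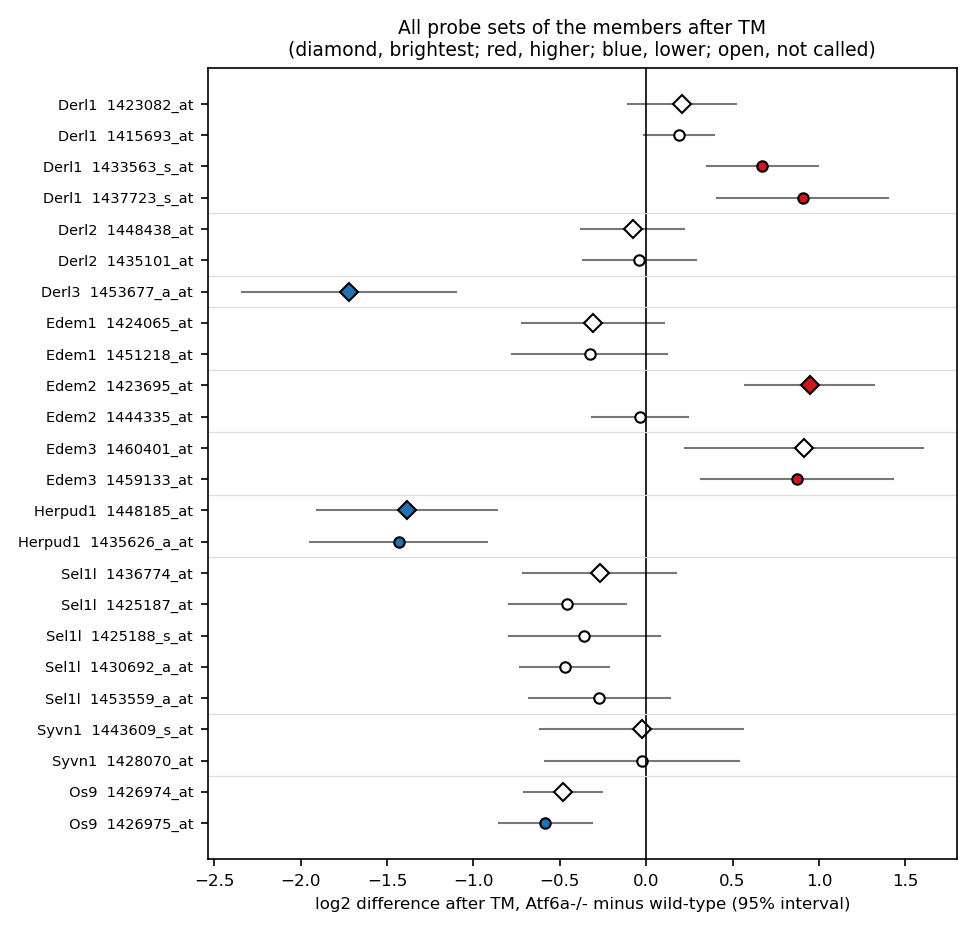
Difference between Atf6a-/- and wild-type livers after TM (log2, with its 95% interval from limma) for all 24 probe sets of the 10 genes. Of these, 4 were called higher, 4 lower and 16 not called, against 8.49% higher and 5.85% lower of all probe sets. The probe sets of Herpud1 lay close together and were all called lower. Those of Os9 also lay close together but gave different calls, as did those of Derl1, Edem2 and Edem3.

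The genes whose level over the 12 arrays was most like that of each gene were sought by Pearson correlation among 6585 genes with a mean of at least 7. This is a description, since the 12 arrays fall into 4 groups and r holds the differences between groups as well as those within them. Among these, the gene most like Sel1l was Dnajc3, an ER co-chaperone (r = 0.992), and Syvn1 was next (0.982). The most like Derl1 was Sec63 of the ER translocon (0.991), followed by Manf (0.988) and Ddost (0.987). Syvn1 was most like Manf (0.988), a secreted ER stress protein, then Atp2a2 and Fndc3b. Derl3 was most like Trappc6a (0.983), then the ER chaperones Hyou1 and Hsp90b1 (both 0.974). Os9 was most like Prkcsh, a glucosidase subunit (0.981), then Creld2 and Derl3 (0.971 and 0.970). Edem1 was most like Zcchc7 (0.978), Hsp90b1 and Sel1l, and Derl2 was most like Magt1 (0.972), Ccpg1 and Usp48. Edem2 was most like Ufm1 (0.986), Fbxo4 and Sec61b, and Edem3 was most like Usp39 (0.993), Tmem107 and Osbp. Herpud1 was most like Stat3 (0.926), Pik3ap1 and Hspb8, at lower values than for any other of the 10 genes.

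The other genes of ERAD gave a wider frame. Of 52 listed, 49 were measured. With TM, 15 rose and none fell in wild-type livers (median 0.26), where 3.45% of all genes rose and 3.86% fell. In Atf6a-/- livers 26 rose and 6 fell (median 0.72), against 15.2% and 12.8% of all genes, so that the share that fell was near that of all genes. All 15 rose in both genotypes. Scaled to Btf3 and Ppia, 17 rose and 11 fell in Atf6a-/- livers, and scaled to the spike-ins 36 rose and 1 fell. After TM 13 were higher and 4 lower in Atf6a-/- livers (8 and 13 scaled to Btf3 and Ppia), against 11.3% and 8.45% of all genes, the share of lower genes again being near that of all genes. None differed after vehicle by limma, also at an unadjusted p under 0.05. The responses differed in 13, with 10 more positive in Atf6a-/- livers and 3 more negative, against 7.56% and 6.69% of all genes (6 and 9 scaled to Btf3 and Ppia, 8 and 5 with cyclic loess, 10 and 5 with quantile normalization). The share that was more negative was near that of all genes. Of the core genes, Derl3 and Herpud1 were called, both more negative. The Herpud1 call was lost in 11 of 26 alternatives and that of Derl3 in 1.

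The 4 lists below are read against the same shares of all genes. Partners and adaptors of HRD1 rose in 4 of 9 cases in wild-type livers and in 7 of 9 without ATF6α. Selenos, which ties VCP to the complex, rose by 1.70 and 1.73 (limma adjusted p = 9.5e-05 and 5.9e-06), and Selenok, a selenoprotein of the ER membrane, by 1.38 and 1.63. Ube2g2, a ubiquitin-conjugating enzyme of the pathway, rose in Atf6a-/- livers by 2.51 and had a wild-type difference of 0.90 (limma adjusted p = 0.128). It was 1.53 higher in Atf6a-/- livers after TM (limma adjusted p = 0.00408). Herpud2, the relative of Herpud1, rose in both and was higher in Atf6a-/- livers after TM by 0.75 (limma adjusted p = 0.00215), where Herpud1 was lower.

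Genes of lumenal substrate selection rose in 6 of 7 cases in wild-type livers, and all 7 rose without ATF6α. Hspa5, the chaperone BiP, rose by 1.95 and 2.15 (limma adjusted p = 3.9e-05 and 1.2e-06), and Dnajb9, its co-chaperone, by 2.05 and 2.50. The genotypes differed after TM in Foxred2 alone, a flavoprotein that binds SEL1L, which was 1.92 higher in Atf6a-/- livers (limma adjusted p = 1.3e-06) and had a mean over all arrays of 4.13, under the array median.

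**Figure D4:**
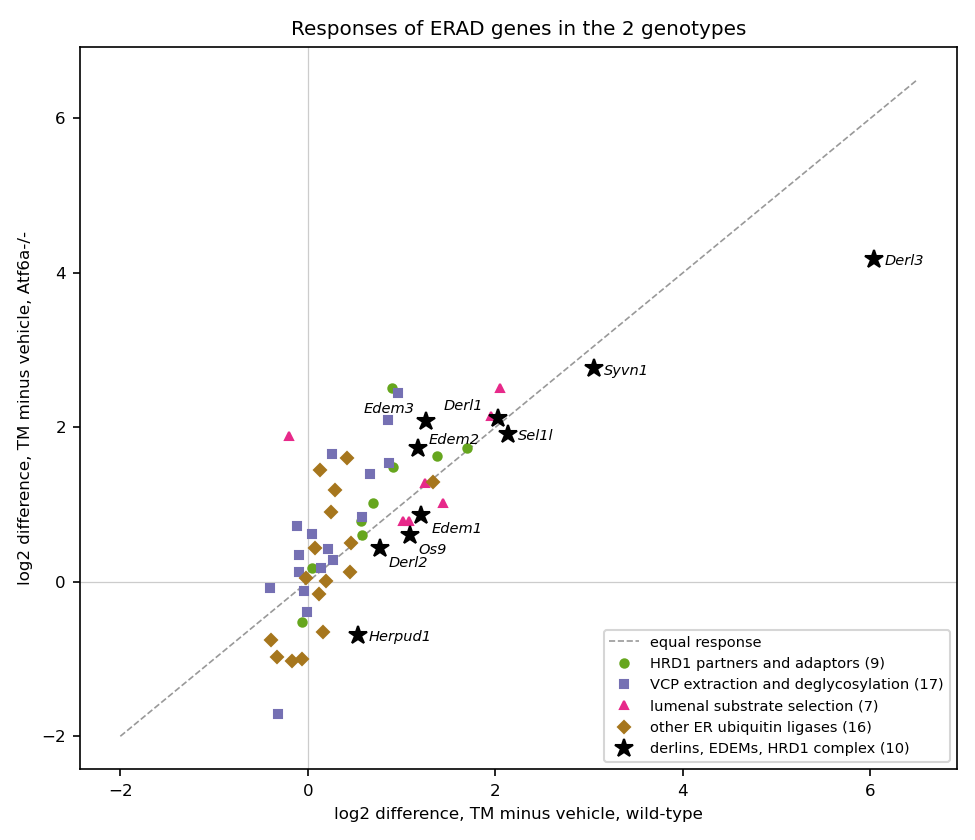
Log2 TM response in wild-type (horizontal) and Atf6a-/- livers (vertical) of the 10 genes and of 49 other ERAD genes in 4 lists, with the line of equal response. Derl3 lay lowest under the line, with 6.04 against 4.18, and several genes of VCP extraction lay above it, such as Get4 with 0.96 against 2.45.

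The list of VCP extraction and deglycosylation, which pull the client out and strip its sugars, had 4 of 17 genes that rose in wild-type livers. In Atf6a-/- livers 7 rose and 1 fell. Get4, a factor of tail-anchored protein handling, rose by 0.96 and 2.45 (limma adjusted p = 0.000843 and 8.8e-08), and Rhbdd1, a rhomboid protease of ERAD, by 0.85 and 2.09. Ubxn4, an ER anchor of VCP, rose by 0.86 and 1.53. Ufd1, the VCP cofactor, had a wild-type difference of 0.26 (limma adjusted p = 0.525) and rose by 1.65 in Atf6a-/- livers. Svip, a small inhibitor of VCP in ERAD, fell in Atf6a-/- livers alone by this call (-1.71, limma adjusted p = 2e-05), and its responses differed by -1.39 (limma adjusted p = 0.00503). Among other ER ubiquitin ligases and their partners, 1 of 16 rose in wild-type livers, Erlin1 (1.34), a scaffold of RNF170. In Atf6a-/- livers 5 rose and 5 fell. The ligase gene Rnf185 rose there by 1.61 and the conjugating enzyme gene Ube2j2 by 1.44, while Jkamp fell (-1.03) and the ligase gene Rnf103 fell 2.01-fold. Stub1, a ligase that works with chaperones, was lower in Atf6a-/- livers after TM (-0.84, limma adjusted p = 0.000187).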

How the data were processed

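The authors deposited log2 values that RMA gave, which subtracts background, equalises the quantiles of all arrays and sums probes into probe sets. The submitters' processing notes name affy and limma without versions. The values, from 2.38 to 14.9 over 45101 probe sets, were used as deposited without a filter, after 64 control probe sets were taken out. The platform table gives 34945 probe sets 1 symbol, 932 several and 9160 none. One mean per group was fitted on all 12 arrays in R 4.3.3 (limma 3.58.1, moderated by eBayes, 8 residual degrees of freedom) for 5 two-sided contrasts, with Benjamini-Hochberg adjustment over 45037 probe sets, and tested on simulated data. Called means a change over 1.5-fold, as in the study's methods, at an adjusted p under 0.05. Motifs and figures used matplotlib 3.10.9, numpy 2.4.6 and pandas 2.3.3 in Python 3.11.15. The genes, lists and motifs were chosen with earlier results of these data known. Named are the 10 genes with all their probe sets, Atf6, the genes most correlated with each, and of each other ERAD list up to 2 called genes with the largest rise and fall per contrast, while Xist and the markers touch a result. Whether animals of the same number in different groups share a litter or batch is not given. Correlations of deviations between their arrays ran from -0.18 to 0.37, which cannot settle it. Alternatives were other normalizations, shifts by Btf3 and Ppia (the latter from a probe set of several symbols) or by spike-ins (chosen after seeing the data), filters, other probe set rules, the methods' t-test, other thresholds, Xist as covariate, a replicate block, and leaving out each animal. The number of arrays limits the precision.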

Additional observations from a re-analysis of the deposited data

Results flagged for a closer look

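Responses to TM that differed between the genotypes by the limma interaction were those of Derl3 (-1.85, log2, Atf6a-/- minus wild-type response) and Herpud1 (-1.22). Of the other ERAD genes named by the rule, Ube2g2 (1.61), Foxred2 (2.09), Get4 (1.49), Ufd1 (1.39), Ube2j2 (1.31) and Rnf185 (1.19) had a more positive response in Atf6a-/- livers. Svip (-1.39), Jkamp (-0.86) and Stub1 (-0.82) had a more negative one. Over all genes 7.56% had a more positive and 6.69% a more negative response in Atf6a-/- livers. Groups of 3 animals were too small for a test of single outlying animals.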

How the results depend on the processing

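The methods' t-test with Benjamini-Hochberg adjustment called 0 of the 10 genes and 0 of the 49 other ERAD genes in the wild-type response. There limma called 9 and 15. After TM that adjusted t-test called 6 of the 49 and lost Herpud1. The study names no such adjustment for its array calls. Left unadjusted, the t-test lost only Edem3 of the 9 in the wild-type response and kept Herpud1 after TM. The Atf6a-/- responses of Derl1, Derl3, Edem2, Edem3, Sel1l and Syvn1, and the difference of Derl3 after TM, kept their call under every alternative run. The shift by Btf3 and Ppia, which moves all wild-type responses by -0.075, all Atf6a-/- responses by -0.52 and all genotype differences after TM by -0.43, called 5 of the 10 after TM and 4 in the interaction. It turned the TM difference of Derl1 (-0.22), its interaction (-0.35) and the Atf6a-/- response of Derl2 (-0.083), and took Edem2 after TM (0.52) and Edem1 in the Atf6a-/- response (0.35) under 1.5-fold. The shift by spike-ins, which moves all wild-type responses by 0.35 and all Atf6a-/- responses by 0.48 and all genotype differences after TM by 0.21, called 24 of the other ERAD genes in the wild-type response and 1 of the 10 in the interaction, and turned the TM differences of Derl2 (0.13) and Syvn1 (0.18) and the vehicle difference of Sel1l (0.026). An adjusted p under 0.01 left 0 of the 10 and 8 of the 49 in the interaction. Small differences also turned with the mean of all probe sets after vehicle (Edem1 -0.0022, Sel1l 0.044), quantile normalization (Os9 after vehicle -0.020, Syvn1 after TM 0.022) and Xist as covariate (Os9 after vehicle -0.0046). With Xist as covariate the Herpud1 interaction call was lost (-1.19, limma adjusted p = 0.0562, within 0.00085 to 0.0904 over all alternatives). Calls were gained there for the Edem2 interaction (0.66, limma adjusted p = 0.0341, within 0.0188 to 0.721) and for Edem3 after TM (1.05, limma adjusted p = 0.0303, within 0.00113 to 0.376). With the replicate number as a block, 1 of the 10 was called in the interaction, as the Herpud1 call was lost (limma adjusted p = 0.0563). Edem3 after TM was gained (limma adjusted p = 0.0270, within 0.00113 to 0.376 over all alternatives). Whether the numbers pair the animals is not given.

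Leaving out 1 animal gave 8 to 9 of the 10 in the wild-type response, 7 to 9 in the Atf6a-/- response, 3 to 4 after TM, 0 after vehicle and 1 to 3 in the interaction. For the other ERAD genes it gave 12 to 17, 30 to 33, 16 to 20, 0 and 9 to 17. Signs turned within these ranges: interaction of Derl1 -0.021 to 0.25 and of Sel1l -0.44 to 0.049, TM difference of Derl2 -0.13 to 0.0082 and of Syvn1 -0.42 to 0.18, and vehicle difference of Derl3 -0.29 to 0.36, Edem1 -0.21 to 0.15, Edem3 -0.069 to 0.23, Os9 -0.080 to 0.11 and Sel1l -0.11 to 0.0050. The methods' t-test and a fit on the compared groups alone give no interaction. Other causes of these changes were not tested.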
